A study of Homo sapiens with 6 samples.

Results

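The genes described here are 9 that control the breakdown and formation of fibrin at the cell surface: the plasminogen activators PLAU and PLAT, the urokinase receptor PLAUR, the serpin inhibitors SERPINE2 and SERPINB2, the coagulation initiator F3, its inhibitors TFPI and TFPI2, and the thrombin receptor THBD. They were chosen by symbol from the 63009 genes read from the FPKM table, all 9 were found, and 8 of them passed the filter on low values (a mean of at least 1 FPKM over all libraries), as did 13993 genes in all. FPKM are fragments scaled to transcript length and to the mapped fragments of the library, so levels can be compared between genes of a library. RNA-seq was done on 6 libraries of mitotic cells, 3 from control and 3 from Ras-induced cultures. All were early passage IMR90 cells, normal human lung fibroblasts, that had been transduced with a retrovirus to express the oncogenic H-RasV12 fused to the ligand-binding domain of the estrogen receptor (ERRAS cells), and were grown with G418 at low oxygen. Control cells carried the same construct and were left uninduced, whereas Ras-induced cells received tamoxifen (100 nM in the sample labels) for 4 days. The study's methods name 4-hydroxytamoxifen and state its concentration by weight, which does not match the labels. Cells of both groups were then arrested in mitosis with 1 µM DME, an inhibitor of the kinesin Eg5, and the detached mitotic cells were collected, so that no library of interphase cells enters the comparison. The libraries are numbered 1 to 3 in each group, as in the table.

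Urokinase (PLAU) and tissue plasminogen activator (PLAT) are serine proteases that cleave plasminogen to plasmin, which dissolves fibrin and degrades matrix proteins. PLAUR holds urokinase at the cell surface, and serpins stop the activators by forming covalent complexes with them. Tissue factor (F3) starts coagulation by binding factor VII, TFPI and TFPI2 are Kunitz-type protease inhibitors, and thrombomodulin (THBD) turns thrombin towards activation of the anticoagulant protein C. Fibroblasts are a known source of several of these proteins, and senescent fibroblasts are known to secrete components of the plasminogen system.

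Both groups carried the same HRAS construct, which the table does not separate from the cellular gene, so the HRAS level does not check the labels. HRAS ranged from 1140.3 to 1176 FPKM in control and from 1439 to 1847 FPKM in Ras-induced libraries. Its adjusted p was 0.0431 from limma, and the call held in 4 of 13 alternatives, of which 1 leaves out Ras-induced library 2. It was lost without any other 1 library (adjusted p from 0.0597 to 0.124 from limma). As a check of the labels, 12 listed ERK target genes were read, all of them tested. Of these, 8 were higher and 1 lower (limma, adjusted p at or under 0.05), against 11% and 5.67% of all tested genes. Of the 8, DUSP4 passed the filter only through the Ras-induced libraries (means of 0.225 and 2.86 FPKM). The feedback phosphatase DUSP6 had a log2 fold change of 3.24 and the early response factor EGR1 of 2.00, while FOSL1, an AP-1 subunit, had -1.18. All 8 fibroblast markers and all 8 mitotic markers were tested, and their summed levels ranged from 5446 to 6333 and from 1623 to 1684 FPKM in control and from 4019 to 5370 and from 1336 to 1472 FPKM in Ras-induced libraries. Of these markers 2 and 4, respectively, were called lower after induction, a call made for 5.67% of all tested genes. All 8 mitotic markers were lower in every Ras-induced library than in any control library, as were 12.8% of all tested genes. The 4 mitotic markers that were not called (CCNB1, CDC20, AURKA and TTK) had log2 fold changes from -0.19 to -0.14. The mitotic calls of PLK1, BUB1, TOP2A and CENPF held in 3, 5, 7 and 10 of 13 alternatives. The fibroblast calls, COL1A2 and THY1 (log2 fold changes of -1.30 and -1.19, adjusted p = 0.0101 and 0.00279 from limma), held in all 13. The collagens COL1A1 and COL3A1 were just past the threshold (log2 fold changes of -1.43 and -1.25, adjusted p = 0.0501 and 0.0553 from limma) and were called lower in 6 and 4 of 13 alternatives. Of 6 endothelial markers 3 were tested, with PECAM1 listed at 0 in every library, CDH5 and KDR under the filter, TEK lower, TIE1 higher (in 4 of 12 alternatives) and ESAM not altered, and the list summed to between 17.5 and 22.0 FPKM in control and between 9.52 and 11.7 FPKM in Ras-induced libraries. Of 6 epithelial markers 3 (KRT5, KRT14 and CLDN4) and of 7 leukocyte and platelet markers 1 (CD68) were tested, and none of these was altered. The epithelial list summed to between 22.7 and 36.5 FPKM in control and between 21.9 and 25.5 FPKM in Ras-induced libraries, the leukocyte and platelet list to between 25.6 and 31.1 and between 30.7 and 36.1 FPKM, and PTPRC and CD3E were close to or at 0. The part of these marker changes in the results was not tested.

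With Ras induction, 3 of the 8 tested genes rose (SERPINB2, TFPI2 and PLAUR) and none fell. Over all 13993 tested genes the altered share was 16.7%, made up of 11% that were higher and 5.67% that were lower after induction. The largest change among the 8 was in the inhibitor SERPINB2, about 10.1-fold by the group means. The activators PLAU and PLAT, the inhibitors SERPINE2 and TFPI, and the initiator F3 did not pass the test. The median log2 fold change was 0.33 over the 8 genes and 0.10 over all tested genes. With a log2 fold change of at least 1 in size as a further condition, SERPINB2 and TFPI2 were left, and 3.92% of all tested genes. In 4 of the 8 (PLAU, PLAUR, SERPINB2 and TFPI2) every Ras-induced library lay above every control library, a separation seen in that direction in 27.1% of all tested genes, in the opposite direction, which no member showed, in 12.8%, and in either in 39.9%. The share of higher and lower genes depended on scaling. After quantile normalization 7.46% of all genes were higher and 7.93% lower, and the same 3 members were higher; after upper-quartile scaling 6.58% were higher and 7.87% lower, and with the replicate number as a block 10.5% and 6.03%, and in both the members called were SERPINB2 and TFPI2. The threshold was an adjusted p of 0.05 (Benjamini-Hochberg, over all tested genes) from two-sided limma tests of log2(FPKM + 1). On that scale the change of a gene at low FPKM is understated. Nothing in the labels says that the libraries came from separate cultures, but the study describes 3 independent repeats. The p-values rest on the spread between these libraries, with variances shared across genes by limma. In bulk RNA, fewer cells that express a gene and less RNA per cell cannot be told apart.

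**Figure D1:**
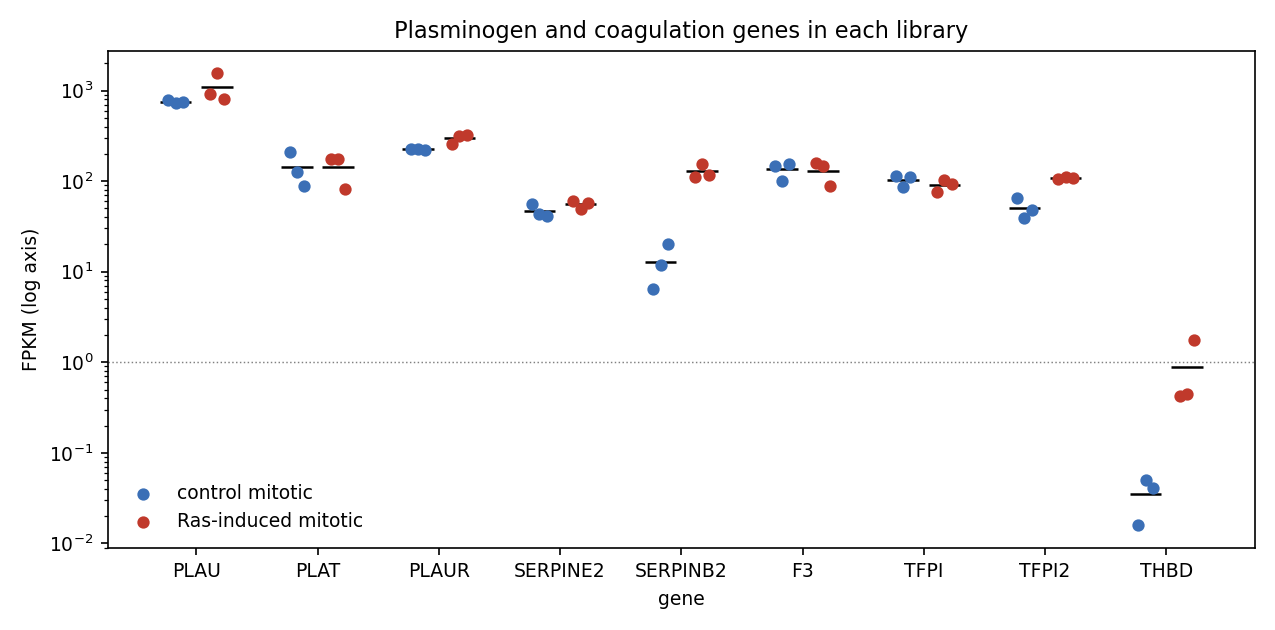
FPKM of each gene (horizontal axis) in each of the 6 libraries on a log axis, with control mitotic libraries in blue, Ras-induced mitotic libraries in red, a bar at the group mean and a dotted line at 1 FPKM. The groups are well apart for SERPINB2 (6.42 to 20.1 against 112 to 155 FPKM) and THBD (0.0159 to 0.0499 against 0.420 to 1.77 FPKM), and overlap for PLAT, SERPINE2, F3 and TFPI.

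PLAU (ENSG00000122861, chromosome 10 of GRCh37 from 75668935 to 75677254, plus strand) encodes urokinase, which acts mainly at the cell surface. It was the most abundant of the genes, at 788, 722 and 753 FPKM in the control libraries and 908, 1547 and 797 FPKM in the Ras-induced libraries, and ranked 77 among the tested genes in control and 37 in Ras-induced cells. Every Ras-induced value was above every control value, but the lowest of them exceeded the highest control value only 1.01-fold and library 2 stood far above the other two. The means of 3 libraries were 754 ± 33.3 FPKM (SD) in control and 1084 ± 405.0 FPKM (SD) in Ras-induced cells. The log2 fold change was 0.46 (95% interval -0.11 to 1.03, adjusted p = 0.226 from limma). Without Ras-induced library 2 the log2 fold change was 0.17. Of the exonic bases of PLAU, 915 (31.0%) are also exonic in C10orf55, a noncoding gene on the opposite strand, which averaged 5.73 FPKM in control and 10.4 FPKM in Ras-induced cells. The library kit is not stated to keep strand, so reads in the shared bases cannot be told apart.

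PLAT (ENSG00000104368, chromosome 8 of GRCh37 from 42032236 to 42065227, minus strand) encodes tissue plasminogen activator, whose activity is greatly increased by fibrin. It measured 212, 126 and 87.9 FPKM in control and 177, 177 and 80.9 FPKM in Ras-induced libraries. The groups overlapped, and library 3 was the lowest in both. The spread within each group was wide, 2.41-fold from lowest to highest in control and 2.19-fold in Ras-induced libraries. Its log2 fold change was 0.04 with a 95% interval of -0.94 to 1.01 (adjusted p = 0.962 from limma), an interval that holds changes of close to 2-fold in both directions.

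PLAUR (ENSG00000011422, chromosome 19 of GRCh37 from 44150247 to 44174699, minus strand) encodes the receptor that anchors urokinase to the membrane. The control libraries had 226, 227 and 218 FPKM and the Ras-induced libraries 259, 318 and 319.8 FPKM. All Ras-induced values were higher than all control values, and the control libraries were within 1.04-fold of each other. The log2 fold change was 0.41 (standard error 0.10, 95% interval 0.17 to 0.65, adjusted p = 0.0381 from limma). The call was close to the threshold, as it held in 4 of 13 alternatives, in which the adjusted p ranged from 0.0241 to 0.128. It was lost without control library 1 (adjusted p = 0.1), control library 2 (0.101), control library 3 (0.0771), Ras-induced library 2 (0.0934) or Ras-induced library 3 (0.128 from limma).

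SERPINE2 (ENSG00000135919, chromosome 2 of GRCh37 from 224839762 to 224904035, minus strand) encodes protease nexin-1, a secreted inhibitor of thrombin, urokinase and tissue plasminogen activator. It measured 56.5, 43.3 and 40.9 FPKM in control and 59.7, 49.8 and 57.6 FPKM in Ras-induced libraries. A Ras-induced library was above a control library in 8 of the 9 possible pairs, the exception being Ras-induced library 2 against control library 1. The log2 fold change was 0.25 (95% interval -0.08 to 0.59, adjusted p = 0.257 from limma).

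SERPINB2 (ENSG00000197632, chromosome 18 of GRCh37 from 61538926 to 61571122, plus strand) encodes plasminogen activator inhibitor type 2, a clade B serpin that is mostly kept inside the cell and can inhibit urokinase. It measured 6.42, 11.7 and 20.1 FPKM in the control libraries and 112, 155 and 118 FPKM in the Ras-induced libraries. The control libraries differed 3.13-fold among themselves, yet the lowest Ras-induced value was still 5.59-fold above the highest control value. The mean of 3 libraries was 12.7 ± 6.88 FPKM (SD) in control and 128 ± 23.2 FPKM (SD) in Ras-induced cells, and the log2 fold change was 3.35 (standard error 0.36, 95% interval 2.48 to 4.21, adjusted p = 0.00378 from limma). Its rank among the tested genes went from 6866 to 837. The call held in all 13 alternatives, with log2 fold changes from 2.97 to 3.72.

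SERPINB2 lies in a row of clade B serpin genes on chromosome 18, of which 9 more were in the list of other serpins. Downstream of it, SERPINB10, whose start is 36.3 kb away, rose from 0.832 and 0.816 FPKM in control libraries 1 and 3, with a value next to 0 in control library 2, to 4.51, 10.1 and 2.38 FPKM in the Ras-induced libraries, with a log2 fold change of 1.99 (adjusted p = 0.034 from limma). It passed the filter only through the Ras-induced libraries (control mean 0.549 FPKM), and without a filter its adjusted p was 0.095 from limma. SERPINB8, an intracellular inhibitor of furin-type proteases whose start is 98.3 kb away, rose from 42.4, 31.0 and 31.6 FPKM to 68.0, 53.3 and 64.8 FPKM, with a log2 fold change of 0.81 (adjusted p = 0.0167 from limma). Upstream, SERPINB7 averaged 43.9 FPKM in control and 51.6 FPKM in Ras-induced cells, and its log2 fold change of 0.21 did not pass the test (adjusted p = 0.554 from limma). It was 0.04 without Ras-induced library 2, 0.43 without Ras-induced library 3, and 0.10 after quantile or upper-quartile scaling. The 6 genes farther upstream (SERPINB3, SERPINB4, SERPINB5, SERPINB11, SERPINB12 and SERPINB13) were under the filter, none above a mean of 0.351 FPKM in either group. A later annotation holds a gene (ENSG00000289724) that shares 547 exonic bases with SERPINB2 and 293 with SERPINB10, and it was not analysed here, so the low values of SERPINB10 are uncertain. The SERPINB10 call held in 5 of 12 alternatives and the SERPINB8 call in 10 of 13. The call of SERPINB10 was lost without any 1 library other than Ras-induced library 3 (adjusted p from 0.0576 to 0.095 from limma), and that of SERPINB8 without control library 2 (0.0581), Ras-induced library 1 (0.0602) or Ras-induced library 3 (0.0609 from limma).

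Of the 19 other serpins listed, 8 were tested. Of these, 4 were altered, 3 higher and 1 lower, against 16.7%, 11% and 5.67% of all tested genes. Leaving aside SERPINB10, which reached the test only through the group where it is high, 7 were tested and 3 altered. Besides SERPINB10 and SERPINB8, SERPINB6, an intracellular serpin, rose (log2 fold change 0.44) from a control mean of 83.5 ± 2.97 FPKM to a Ras-induced mean of 113.8 ± 5.67 FPKM (both ± SD, n = 3; adjusted p = 0.0118 from limma). SERPING1, the inhibitor of complement C1, fell from 11.4, 9.22 and 14.7 FPKM to 6.09, 4.78 and 3.81 FPKM, with a log2 fold change of -1.11 (adjusted p = 0.0163 from limma). Its call was lost without control library 1 (adjusted p = 0.0548) or Ras-induced library 3 (0.0531 from limma). The 4 others tested (SERPINB1, SERPINB7, SERPINF1 and SERPINH1) did not pass the test, but SERPINH1, a collagen chaperone at 532 FPKM in control and 387 FPKM in Ras-induced cells, had a log2 fold change of -0.47 (adjusted p = 0.0657 from limma) and was called lower in 4 of 13 alternatives, among them quantile (adjusted p = 0.0224) and upper-quartile scaling (0.0383 from limma), so that both scalings gave 3 higher and 2 lower. The median log2 fold change of the 8 was 0.33, or 0.21 without SERPINB10, against 0.10 over all tested genes. The number altered was 2 without control library 1, control library 2, Ras-induced library 1 or Ras-induced library 3.

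Among 15 further genes of the plasminogen system, 9 were tested. Of these, 2 were lower in Ras-induced cells and none was higher. Over all tested genes the altered share was 16.7%, with 5.67% lower and 11% higher. A2M, a broad protease inhibitor, fell (log2 fold change -1.19) from a control mean of 4.26 ± 1.40 FPKM to a Ras-induced mean of 1.28 ± 0.381 FPKM (both ± SD, n = 3; adjusted p = 0.0248 from limma). LRP1, the endocytic receptor that clears complexes of activators with their inhibitors, fell (log2 fold change -0.66) from a control mean of 34.3 ± 6.61 FPKM to a Ras-induced mean of 21.2 ± 3.81 FPKM (both ± SD, n = 3; adjusted p = 0.0488 from limma).

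The plasminogen-binding surface proteins ANXA2, S100A10, ENO1 and PLGRKT, the collagen receptor MRC2, the lipoprotein receptor VLDLR and the growth factor HGF were tested and not altered, with log2 fold changes from -0.07 to 0.42. Plasminogen itself (PLG) averaged 0.124 FPKM in control and 0.0931 FPKM in Ras-induced cells, and SERPINF2, the main inhibitor of plasmin, was listed at 0 in 5 of the 6 libraries. The median log2 fold change of the 9 tested genes was -0.03. Both calls of this list were lost without single libraries, a step that cut all altered genes from 2336 to between 994 and 1951. The log2 fold change then ranged from -0.79 to -0.52 for LRP1 and from -1.42 to -1.02 for A2M. The LRP1 call was lost without any 1 of the 6 libraries (adjusted p from 0.0569 to 0.121 from limma), and that of A2M without any 1 other than control library 3 (0.0518 to 0.0829 from limma).

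F3 (ENSG00000117525, chromosome 1 of GRCh37 from 94994729 to 95007315, minus strand) encodes tissue factor, the membrane protein that initiates coagulation. It measured 148, 100.5 and 156 FPKM in control and 159, 146 and 87.4 FPKM in Ras-induced libraries. The groups overlapped, with 1 library in each group well under the other two. The log2 fold change was -0.07 (95% interval -0.70 to 0.57, adjusted p = 0.888 from limma).

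TFPI (ENSG00000003436, chromosome 2 of GRCh37 from 188328957 to 188430487, minus strand) encodes the inhibitor of the complex of tissue factor with factor VII. Its values were 113, 85.4 and 109.7 FPKM in control and 75.5, 103 and 92.8 FPKM in Ras-induced libraries, and the groups overlapped. The log2 fold change was -0.18 (95% interval -0.55 to 0.19, adjusted p = 0.45 from limma). It was -0.06 without Ras-induced library 1 and -0.30 without control library 2.

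TFPI2 (ENSG00000105825, chromosome 7 of GRCh37 from 93514708 to 93520065, minus strand), which encodes a matrix-bound inhibitor of plasmin and other serine proteases, had 65.0, 39.3 and 48.3 FPKM in control and 106, 111 and 109 FPKM in Ras-induced libraries. The Ras-induced libraries were within 1.05-fold of each other, and the lowest of them was 1.62-fold above the highest control library. The mean rose (log2 fold change 1.11) from a control mean of 50.9 ± 13.01 FPKM to a Ras-induced mean of 108 ± 2.84 FPKM (both ± SD, n = 3; standard error 0.17, 95% interval 0.70 to 1.52, adjusted p = 0.0101 from limma), and the call held in all 13 alternatives. TFPI2 shares 44 exonic bases with GNGT1 on the opposite strand, which averaged under 1 FPKM in both groups.

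THBD (ENSG00000178726, chromosome 20 of GRCh37 from 23026270 to 23030309, minus strand) encodes thrombomodulin and is a gene of 1 exon. It was under the filter, at 0.0159, 0.0499 and 0.0405 FPKM in control and 0.420, 0.447 and 1.77 FPKM in Ras-induced libraries, so it was not tested with the others. All 3 Ras-induced values were above all 3 control values, the lowest 8.41-fold above the highest control value, but library 3 alone reached 1 FPKM. Corrected for the relative depth of the libraries, the values were 1.00, 2.99, 2.99, 29.9, 23.9 and 109 times the lowest, close to whole multiples. If the lowest value stands for 1 fragment, the control libraries held 7 THBD fragments and the Ras-induced libraries 163, a depth-corrected ratio of 24.6 (95% interval 11.7 to 62.2, exact binomial, for counting error only). Library 3 supplied 109 of the 163 fragments, and without it the ratio was 12.2 (5.52 to 31.7). When every gene above 0 was tested, its log2 fold change was 0.79 on the log2(FPKM + 1) scale (adjusted p = 0.188 from limma).

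Of 21 further coagulation genes listed, 8 were tested. Of these, 5 were altered, 3 higher and 2 lower, against 16.7%, 11% and 5.67% of all tested genes. After quantile or upper-quartile scaling the split was 2 higher and 3 lower, as F2R was not called and ANXA5 was called lower (adjusted p = 0.0182 and 0.0303 from limma). Among the tested genes the highest log2 rise was in F2RL1, which encodes the protease-activated receptor PAR2, a receptor cleaved by the complex of tissue factor with factor VII. It went from 7.73, 8.48 and 8.27 FPKM to 36.1, 27.4 and 27.2 FPKM, with a log2 fold change of 1.76 (adjusted p = 0.00152 from limma). PROCR, the protein C receptor, rose (log2 fold change 1.03) from a control mean of 11.98 ± 0.667 FPKM to a Ras-induced mean of 25.6 ± 2.94 FPKM (both ± SD, n = 3; adjusted p = 0.00309 from limma). F2R, which encodes the main thrombin receptor PAR1, rose (log2 fold change 0.47) from a control mean of 81.5 ± 11.04 FPKM to a Ras-induced mean of 113 ± 12.3 FPKM (both ± SD, n = 3; adjusted p = 0.0489 from limma). That call held in 3 of 13 alternatives and was lost without any 1 library other than control library 3 (adjusted p from 0.0545 to 0.14 from limma).

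The vitamin K-dependent growth factor GAS6, a ligand of TAM receptor kinases, fell from 321, 302 and 381 FPKM to 93.2, 115.6 and 90.5 FPKM, with a log2 fold change of -1.74 (adjusted p = 0.00177 from limma). F10, coagulation factor X, fell (log2 fold change -1.15) from a control mean of 5.61 ± 0.557 FPKM to a Ras-induced mean of 2.02 ± 0.645 FPKM (both ± SD, n = 3; adjusted p = 0.0116 from limma). F2RL2, PROS1 and, without rescaling, ANXA5 were not altered, and the remaining 13 genes of the list, prothrombin (F2) and factor VII (F7) among them, were under the filter. Among these, SERPIND1 (heparin cofactor II), named after its values were seen, had 0.193, 0.203 and 0.0234 FPKM in control and 0.642, 0.841 and 1.04 FPKM in Ras-induced libraries, 6.03-fold by the group means, and was called higher when every gene above 0 was tested (adjusted p = 0.0354 from limma). The median log2 fold change of the 8 tested genes was 0.18. Opposite-strand genes share 10.4% of the exonic bases of F2RL1 and 12.85% of those of PROCR, and reads there cannot be told apart.

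**Figure D2:**
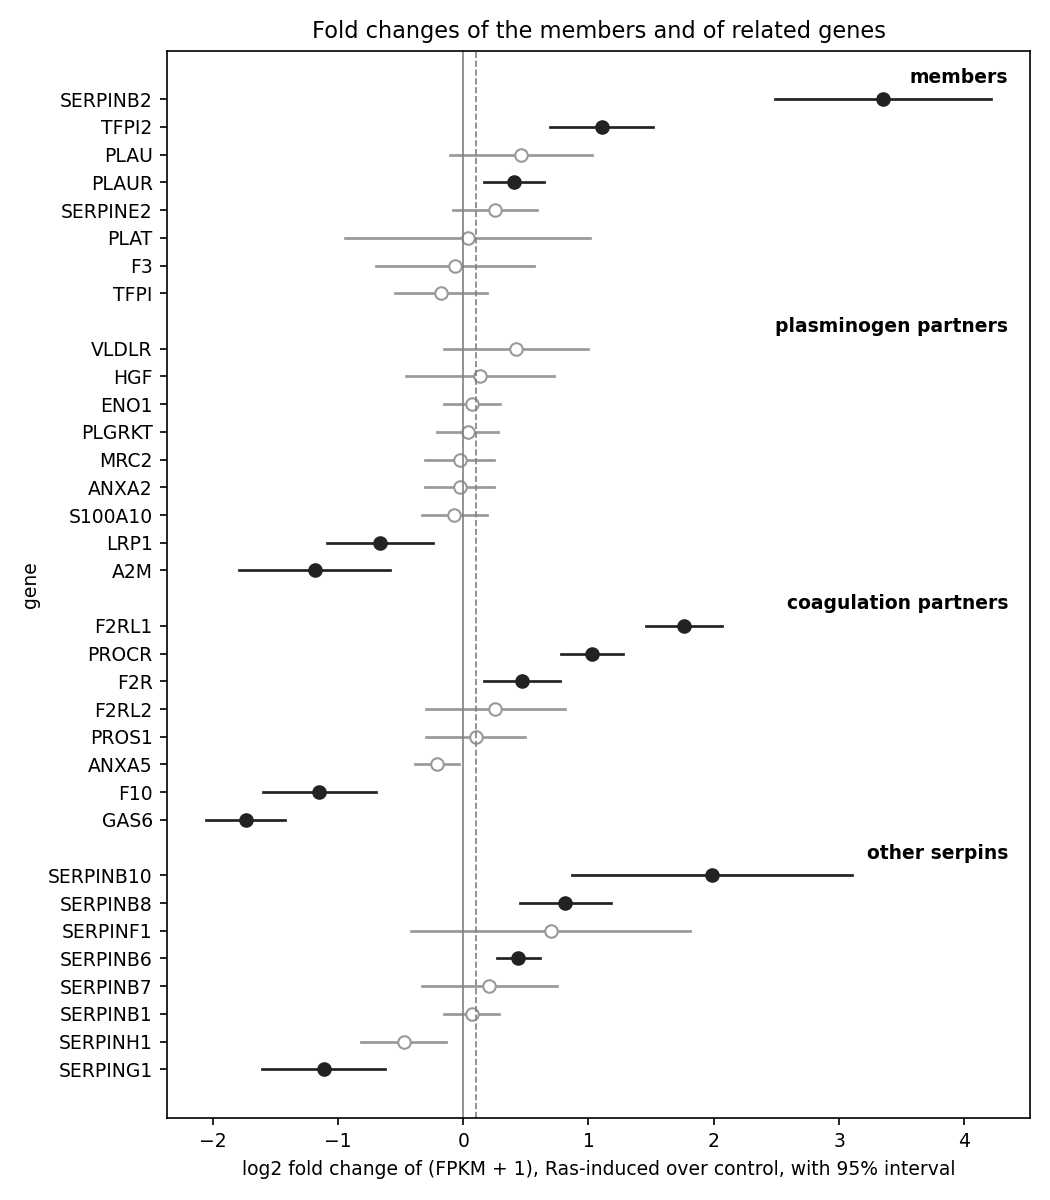
Log2 fold change of (FPKM + 1) of Ras-induced over control mitotic cells (points) with its 95% interval from limma (bars, n = 3 libraries per group) for the 8 tested members and the tested genes of the plasminogen, coagulation and serpin lists, with filled points for adjusted p at or under 0.05 and a dashed line at the median of all tested genes (0.10). SERPINB2 (3.35) lies farthest to the right, and GAS6 (-1.74) farthest to the left.

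The region just before the start of the gene was read for the 7 members that matched a promoter entry of RefSeq (PLAU, PLAUR, SERPINE2, SERPINB2, F3, TFPI and TFPI2). The 250 bases before the start were searched on both strands for AP-1 (TGANTCA), a cAMP response element (TGACGTCA), an ETS site (CAGGAAGT), a TATA box (TATAAA) and a GC box (GGGCGG). The AP-1 pattern allows any base at N and is a loose form of the site of FOS and JUN dimers. PLAT and THBD were not searched. An AP-1 match was found in 4 of the 7 genes (4 of their 9 windows) and in 6.57% of the 35093 promoter windows searched. The 4 were the altered genes SERPINB2, TFPI2 and PLAUR and the gene F3, which was not altered, whereas PLAU (both of its windows), SERPINE2 (both of its windows) and TFPI had no match. F3 had 2 matches, which start 223 and 210 bases before its start, and the matches of PLAUR, SERPINB2 and TFPI2 start 186, 102 and 87 bases before theirs. TATA boxes were found in SERPINB2 and F3, and in 10.7% of all windows. TFPI alone had the ETS site, found in 2.60% of all windows, no member had the cAMP response element (1.65%), and GC boxes were in F3, SERPINE2, TFPI2 and PLAU (42.6%). A match is a description of these letters, not of binding, and sites outside the window were not searched. Whether the matches have a part in the changes was not tested. The windows of the 4 genes with an AP-1 match are shown 5′ to 3′ on the strand of the gene, in the GRCh38.p14 coordinates of RefSeq, with AP-1 and TATA box matches in capitals.
SERPINB2 promoter, chr18:63887455-63887704 (plus strand): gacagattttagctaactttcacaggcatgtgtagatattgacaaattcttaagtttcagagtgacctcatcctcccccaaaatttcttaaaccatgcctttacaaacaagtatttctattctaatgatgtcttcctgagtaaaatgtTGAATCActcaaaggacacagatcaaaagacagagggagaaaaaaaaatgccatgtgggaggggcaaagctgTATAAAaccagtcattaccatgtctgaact
TFPI2 promoter, chr7:93890754-93891003 (minus strand): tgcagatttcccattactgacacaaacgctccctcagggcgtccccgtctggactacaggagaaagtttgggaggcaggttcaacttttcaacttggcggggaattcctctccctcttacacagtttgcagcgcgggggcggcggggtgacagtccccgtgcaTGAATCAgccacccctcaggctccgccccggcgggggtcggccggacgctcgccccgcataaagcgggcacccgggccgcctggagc
PLAUR promoter, chr19:43670170-43670419 (minus strand): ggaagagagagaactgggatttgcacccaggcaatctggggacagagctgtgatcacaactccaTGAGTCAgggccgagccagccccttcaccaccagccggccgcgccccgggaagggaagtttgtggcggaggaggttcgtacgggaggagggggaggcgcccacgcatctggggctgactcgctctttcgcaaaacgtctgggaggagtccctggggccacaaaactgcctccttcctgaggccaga
F3 promoter, chr1:94541760-94542009 (minus strand): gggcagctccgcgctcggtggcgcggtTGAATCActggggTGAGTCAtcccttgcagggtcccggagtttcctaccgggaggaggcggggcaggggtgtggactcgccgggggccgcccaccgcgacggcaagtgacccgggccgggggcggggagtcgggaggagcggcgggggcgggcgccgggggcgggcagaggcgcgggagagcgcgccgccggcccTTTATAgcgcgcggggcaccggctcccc
The F3 window, with 78.0% G and C, differed most from that of SERPINB2, with 37.2%, and SERPINB2 and TFPI2 carry the same AP-1 heptamer as the match of F3 farther from its start, whereas PLAUR carries that of the nearer F3 match.

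Ratios within a library, in which a rescaling of the library largely cancels, were formed from (FPKM + 1) for 6 pairs, 5 of an activator or initiator with a partner or inhibitor and 1 of both TFPI genes. With 3 libraries against 3 the smallest two-sided exact p is 0.1, so no single ratio can pass the 0.05 threshold. TFPI2 was less abundant than TFPI in every control library (ratios 0.581, 0.466 and 0.446) and more abundant in every Ras-induced library (1.39, 1.08 and 1.17), a log2 difference of 1.29 (exact permutation p = 0.1, 0.3 adjusted over the 6 ratios). The ratio of F3 to TFPI2 was 2.26, 2.52 and 3.19 in control and 1.499, 1.31 and 0.806 in Ras-induced libraries, a log2 difference of -1.17 (exact permutation p = 0.1, 0.3 adjusted). The groups overlapped in the ratios of F3 to TFPI, PLAU to SERPINE2, PLAU to PLAT and PLAU to PLAUR, whose log2 differences were 0.11, 0.21, 0.43 and 0.05 (exact permutation p = 0.8, 0.9, 0.4 and 0.7).

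For 1 more pair, formed after the values had been seen, the ratio of PLAU to SERPINB2 was 106, 56.8 and 35.8 in control and 8.03, 9.93 and 6.72 in Ras-induced libraries, a log2 difference of -2.89. The groups did not overlap, and the ratio was lower in every Ras-induced library than in any control library, with PLAU itself not called.

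**Figure D3:**
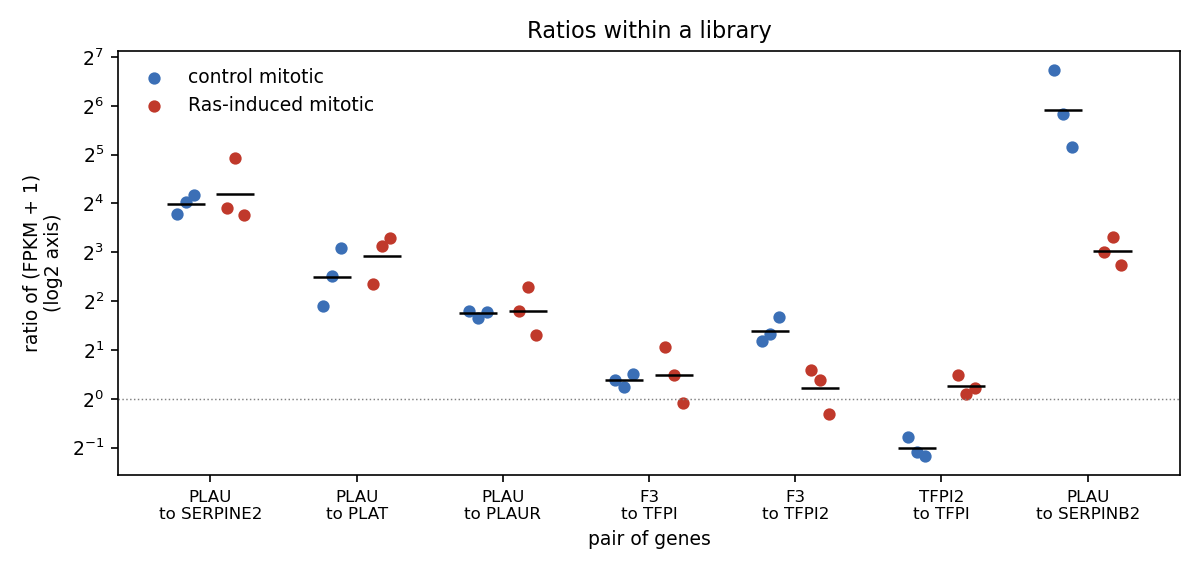
Ratio of (FPKM + 1) of the first to the second gene of each pair (horizontal axis) in each library on a log2 axis, with control mitotic libraries in blue, Ras-induced mitotic libraries in red, a bar at the geometric mean of the group and a dotted line at equal levels. The groups are apart for F3 to TFPI2, TFPI2 to TFPI and PLAU to SERPINB2, and TFPI2 to TFPI passes from under 1 to over 1.

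In order of their mean level in control cells the genes ran PLAU (754 FPKM), PLAUR (224), PLAT (142), F3 (135), TFPI (103), TFPI2 (50.9), SERPINE2 (46.9), SERPINB2 (12.7) and THBD (0.0354). The libraries of PLAT overlapped with those of F3 and TFPI, and those of TFPI2 with those of SERPINE2, so these neighbours were not separated. In Ras-induced cells SERPINB2 (128 FPKM) lay next to F3 (131) and PLAT (145), with overlapping values, and TFPI2 (108) had passed TFPI (90.6). SERPINB2 had moved from under SERPINE2 in every control library to above it in every Ras-induced library.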

How the data were processed

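Poly(A) RNA of the 6 libraries was sequenced by the authors as paired-end reads, trimmed with Trim Galore 0.3.0 and aligned to hg19 with TopHat2 and Ensembl splice junctions. FPKM per gene were calculated with Cufflinks and deposited by the authors as 1 column per library. Scaling between libraries is not given in the sources used here. The column names give the group and a number, not the sample, and 18 unnamed columns, which hold extra values of 120 genes, were not used. These genes were left out. A deposited cuffdiff comparison (FPKM per group, log2 fold change, test statistic, p-value and q-value) was not used.

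The limma package (3.58.1, R 4.3.3, eBayes with a mean-variance trend) was applied to log2(FPKM + 1) of the 13993 genes that averaged 1 FPKM or more, and p-values were adjusted over all of them. Where a symbol was listed more than once, the row of highest mean was used. The test was checked on simulated data. No counts were used. Steps between low FPKM values gave depths of 0.951 and 1.17 for control libraries 2 and 3 and of 1.13, 0.849 and 0.974 for the Ras-induced libraries, relative to control library 1, and absolute depth was not set. Gene coordinates are from GENCODE 44 on GRCh37 (the hg19 assembly), promoter sequences from RefSeq on GRCh38.p14 (chromosome 8 left out). Tables were made with pandas 2.3.3 under Python 3.11.15, exact intervals with scipy 1.17.1 and plots with matplotlib 3.10.9.

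The members, gene lists (further plasminogen genes, further coagulation genes, other serpins, ERK targets, and markers of fibroblasts, mitotic, endothelial, epithelial and blood cells) and tests were chosen with earlier results of these data known. The genes named are all members, HRAS, 3 ERK targets and altered genes of the plasminogen, coagulation and serpin lists. From each of these lists they are up to 3 of the largest rises and 3 of the largest falls. Other genes named for levels or alternatives, DUSP4, single markers, SERPIND1, the neighbours of SERPINB2 and 1 added ratio were chosen after their values were seen. 1 gene is not reported here. Alternatives were another pseudocount (0.1), other filters (none, or a mean of at least 5 FPKM), quantile and upper-quartile scaling, no trend, a replicate block, and each library left out. These make up the 13 alternatives of a gene, or 12 where its mean was under 5 FPKM. A log2 fold change of at least 1 was applied to counts of altered genes and is not among them.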

Additional observations from a re-analysis of the deposited data

How the results depend on the processing

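Of the members, SERPINB2 and TFPI2 were called under all 13 alternatives, and PLAU, PLAT, SERPINE2, F3 and TFPI under none. The PLAUR call was lost with no filter on low values (log2 fold change 0.41, adjusted p = 0.0882 from limma), with upper-quartile scaling (0.30, adjusted p = 0.0935), without a variance trend (0.41, adjusted p = 0.0604) and with the replicate number as a block (0.41, adjusted p = 0.053), and over the libraries left out its log2 fold change ranged from 0.36 to 0.51. PLAT turned to -0.028 with quantile and to -0.074 with upper-quartile scaling, and ranged from -0.26 to 0.41 over the libraries left out, while F3 ranged from -0.26 to 0.20. With a pseudocount of 0.1 the log2 fold change of THBD was 2.59 in place of 0.79. It ranged from 0.47 to 0.95 over the libraries left out, and quantile scaling was not run for it, as it was under the filter.

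The number of altered genes was 2336 of 13993, 1518 without a filter, 548 with a log2 fold change of at least 1, and from 994 to 1951 over the libraries left out (lowest without control library 2). Altered genes split into 1543 higher and 793 lower, into 1044 and 1109 after quantile and into 921 and 1101 after upper-quartile scaling, where the median log2 fold change of all genes was 0.01 and 0.00 in place of 0.10. Of the further plasminogen genes (2 altered) 0 were called without a filter, 1 with a mean of at least 5 FPKM, without a trend, with the replicate block or with a log2 fold change of at least 1, and 0 to 1 over the libraries left out. Of the other serpins 5 were called after quantile or upper-quartile scaling, which added SERPINH1, 2 were called with a log2 fold change of at least 1, and 2 to 4 over the libraries left out. The log2 differences ranged from -0.16 to 0.42 for PLAU to SERPINE2 and from -0.19 to 0.30 for PLAU to PLAUR (each negative only without Ras-induced library 2), from 0.12 to 0.72 for PLAU to PLAT, and from -0.17 to 0.40 for F3 to TFPI (negative only without Ras-induced library 1). No ratio changed direction with the pseudocount or upper-quartile scaling.

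Across genes, the deviations from the group mean of a control and a Ras-induced library with the same number had correlations of -0.00266 to 0.0481 (different numbers -0.0679 to 0.0311), so the number was not taken to pair the samples. With the replicate block 2310 genes were altered, 1940 of them in both fits. Among the named genes, the block also took the calls of HRAS (adjusted p = 0.0526 from limma), LRP1 (0.0655), F2R (0.0509), PLK1 (0.0643) and SERPINB10 (0.0654) past 0.05. SERPINH1 (0.0414) and COL1A1 (0.0456) were called with the block, and TIE1 kept its call (0.029 from limma). The causes of these differences were not tested. Without absolute depth, no floor can be given for genes listed at 0.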
